A study of Homo sapiens with 12 samples.

Results

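Expression of 10 Wnt pathway genes, of 26357 genes named alike in all tables, was followed in 12 RNA sequencing libraries of human mammary epithelial cells. The genes were taken by name: the co-receptors LRP5 and LRP6, the Frizzled receptors FZD2 and FZD6, the ligands WNT5A and WNT5B, the secreted proteins DKK1 and DKK3, the feedback inhibitor AXIN2 and the matricellular protein WISP1. All 10 had a row in each table, and 9 of them were among the 11659 genes expressed highly enough to be tested. AXIN2 lay below that limit.

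Wnt ligands are secreted lipid-modified proteins that bind Frizzled receptors. With LRP5 or LRP6 as co-receptor, a Wnt signal stops the destruction of beta-catenin, which then enters the nucleus and works with TCF/LEF factors to switch on target genes; other ligands, WNT5A and WNT5B among them, act mostly through Frizzled, ROR and RYK receptors without beta-catenin, on cell movement and polarity. DKK1 blocks LRP5 and LRP6, and AXIN2 is a scaffold of the complex that destroys beta-catenin. In the mammary gland Wnt signals are known for maintaining basal stem cells. Salinomycin, a potassium ionophore, has been described in other cells as acting on LRP6 protein, which RNA levels do not measure.

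HMLE is an immortalised line of human mammary epithelial cells. HMLE-Twist cells carry the transcription factor TWIST1 and are labelled EMT, for the transition in which epithelial cells turn mesenchymal. HMLE-pBp cells are the line labelled non-EMT. Each line was kept for 24 hours in 0.2 uM salinomycin, and mock-treated cells had DMSO, which gave 4 groups of 3 biological replicates: HMLE-Twist with salinomycin, HMLE-Twist with mock, HMLE-pBp with salinomycin and HMLE-pBp with mock. All cells grew in the same medium with serum, insulin and hydrocortisone. Each genotype is represented by 1 line, so a difference between lines cannot be told apart from other differences between these 2 cultures.

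The libraries held 17.91 to 26.73 megareads, recovered from the deposited values. Levels are given as FPKM (fragments per kilobase of transcript and megaread), rebuilt on 1 scale for all libraries. Log2 fold changes are on log2(FPKM + 1), which understates the change of genes near 0, and carry their SE and an adjusted p (limma, Benjamini-Hochberg over all genes tested). A gene passed at an adjusted p under 0.05. TWIST1 averaged 937 ± 251 FPKM with salinomycin and 735 ± 348 FPKM with mock in HMLE-Twist, against 2.18 ± 0.278 FPKM with salinomycin and 2.57 ± 0.0367 FPKM with mock in HMLE-pBp (SD, n = 3 each). The labelled identities held: the summed FPKM of 10 epithelial markers ran over 2.15 to 7.62 in HMLE-Twist libraries and 2190 to 2980 in HMLE-pBp libraries. The summed FPKM of 10 mesenchymal markers was 4020 to 5720 in HMLE-Twist and 508 to 657 in HMLE-pBp. This sum includes TWIST1, the gene that HMLE-Twist cells carry. SNAI2 alone of the 10 did not pass between the lines under salinomycin. It was at 26.6 ± 1.62 FPKM in HMLE-Twist and 28.0 ± 7.84 FPKM in HMLE-pBp.

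Promoter sequences are shown for DKK1, the member that fell with salinomycin in both lines, for the second annotated start of WNT5A and of WNT5B, the ligands found in HMLE-Twist, and for LRP5, the co-receptor that differed most between the lines. RefSeq promoters (GRCh38.p14) were at hand for these 4 members. Each sequence is the 250 bases before the start site, 5′ to 3′ on the strand of the gene, in lower case.
DKK1, chr10:52314031-52314280, plus strand: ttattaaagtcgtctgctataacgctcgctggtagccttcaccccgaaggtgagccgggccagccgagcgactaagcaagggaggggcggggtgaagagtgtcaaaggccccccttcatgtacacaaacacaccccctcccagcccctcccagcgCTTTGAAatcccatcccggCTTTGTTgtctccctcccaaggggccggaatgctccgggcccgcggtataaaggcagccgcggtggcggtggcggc
WNT5A, chr3:55481399-55481648, minus strand: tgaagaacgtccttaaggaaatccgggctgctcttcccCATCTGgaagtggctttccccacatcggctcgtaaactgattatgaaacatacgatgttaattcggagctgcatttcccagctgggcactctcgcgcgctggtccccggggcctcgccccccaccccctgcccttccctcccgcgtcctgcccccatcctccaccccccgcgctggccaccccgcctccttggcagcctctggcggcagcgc
WNT5B, chr12:1628981-1629230, plus strand: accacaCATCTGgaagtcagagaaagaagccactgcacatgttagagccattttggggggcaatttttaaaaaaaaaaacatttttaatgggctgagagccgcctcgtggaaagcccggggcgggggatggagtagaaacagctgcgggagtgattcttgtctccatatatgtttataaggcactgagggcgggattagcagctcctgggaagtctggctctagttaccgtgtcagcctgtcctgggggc
LRP5, chr11:68312341-68312590, plus strand: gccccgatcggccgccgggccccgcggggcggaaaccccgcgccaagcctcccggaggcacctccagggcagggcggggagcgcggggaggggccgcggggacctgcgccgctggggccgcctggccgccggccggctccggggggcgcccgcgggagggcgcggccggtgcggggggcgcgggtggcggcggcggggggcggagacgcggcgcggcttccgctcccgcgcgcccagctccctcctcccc
Capitals mark the strings searched for on both strands. For TCF/LEF factors these were CTTTG followed by AA, by AT, by TA or by TT. The E-boxes searched for were CATATG and also CAGATG, letters that TWIST1 is known to bind. No string of one kind overlapped one of the other kind. The DKK1 window held 2 TCF/LEF strings, CTTTGAA from 95 to 89 and CTTTGTT from 76 to 70 bases before the start. Each of the WNT5A and WNT5B windows held 1 E-box, CAGATG on the opposite strand, from 212 to 207 bases before the start in WNT5A and from 244 to 239 in WNT5B. The windows of their first annotated starts, not shown, held neither kind of string; the second starts are shown because they held the E-box. The LRP5 window held neither and was 87.2% G and C, against 62.8% in the DKK1 window. Of 35114 promoters of this length, 12.0% held a TCF/LEF string and 14.3% an E-box of these letters, and a match describes the letters only.

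The 2 lines differed in most members. Under mock, 7 of 9 tested members passed in HMLE-Twist against HMLE-pBp, 4 of them higher and 3 lower, a share close to that of all tested genes, of which 73.4% passed (36.2% higher and 37.2% lower). The higher ones were WNT5A, WNT5B, DKK3 and WISP1, and the lower ones were LRP5, LRP6 and FZD6. Under salinomycin 8 passed, 5 higher with FZD2 as the added gene and 3 lower, where 63.5% of all genes passed (31.4% higher and 32.1% lower). Counted by libraries that did not overlap, with AXIN2 included, 5 of the 10 genes were above and 3 below HMLE-pBp under mock, against 36.8% and 37.1% of tested genes. Under salinomycin 7 were above and 3 below, against 35.2% and 34.9%. The members' median log2 fold change was 0.24 under mock and 0.54 under salinomycin, against -0.00 and 0.01 over all tested genes. WNT5A and WISP1 lay far under 1 FPKM in HMLE-pBp and passed the filter on low values (at least 1 FPKM in at least 3 libraries) through HMLE-Twist alone, so their difference between lines was built into the filter. In bulk samples, fewer cells with an RNA and less of it per cell cannot be told apart.

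**Figure D1:**
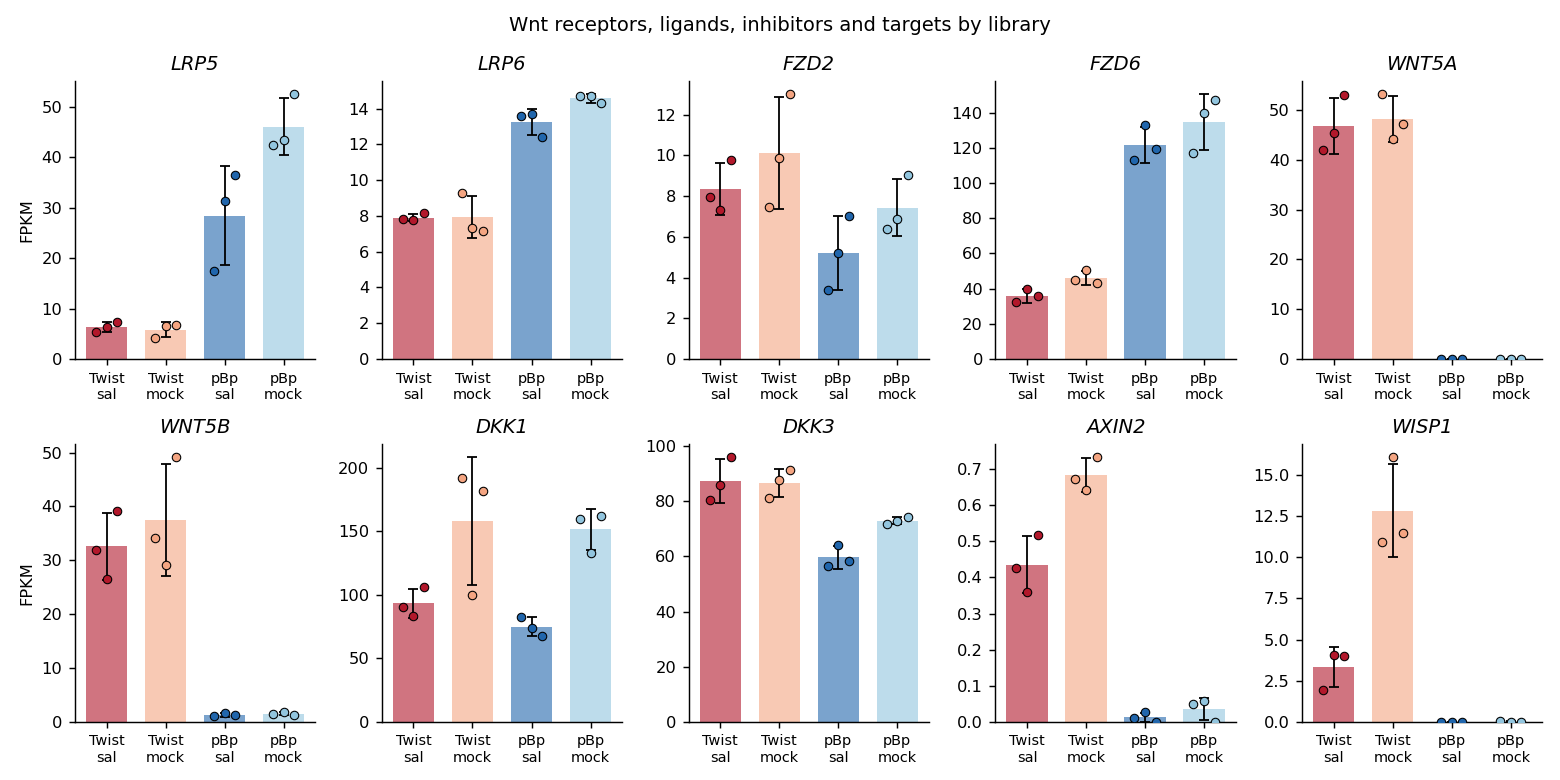
FPKM of the 10 genes in each library, with salinomycin left of mock and HMLE-Twist left of HMLE-pBp. Bars are means, error bars SDs over 3 libraries and points libraries; each panel has its own linear axis. WNT5A, WISP1 and AXIN2 lie at or near 0 in HMLE-pBp, LRP5 and FZD6 are higher in HMLE-pBp, and DKK1 is lower with salinomycin in both lines.

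Ordered by level within mock-treated HMLE-Twist, DKK1 (158 FPKM) came before DKK3 (86.7 FPKM), WNT5A (48.3 FPKM), FZD6 (46.0 FPKM) and WNT5B (37.5 FPKM). WISP1 (12.8 FPKM), FZD2 (10.1 FPKM), LRP6 (7.92 FPKM), LRP5 (5.84 FPKM) and AXIN2 (0.684 FPKM) followed. The libraries of WNT5A and FZD6, of FZD6 and WNT5B, of WISP1 and FZD2, and of FZD2 and LRP6 overlapped in range, and the other neighbours did not. In mock-treated HMLE-pBp the order was DKK1 (152 FPKM), FZD6 (135 FPKM), DKK3 (73.1 FPKM), LRP5 (46.1 FPKM), LRP6 (14.6 FPKM), FZD2 (7.43 FPKM) and WNT5B (1.53 FPKM). WNT5A, AXIN2 and WISP1 came last, each under 0.06 FPKM in every library and overlapping. DKK1 and FZD6 overlapped as well in this line. The recovered gene lengths were 0.99 to 1.13 times the longest reference transcript, except 1.81 for FZD2, so the FZD2 level may be understated relative to the other genes.

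LRP5 and LRP6 are single-pass co-receptors that DKK1 binds. LRP5 was present at 5.34, 6.33 and 7.28 FPKM in salinomycin-treated and 4.20, 6.57 and 6.76 FPKM in mock-treated HMLE-Twist. In HMLE-pBp it was at 17.5, 31.3 and 36.4 FPKM with salinomycin and 42.4, 43.4 and 52.5 FPKM with mock. Every HMLE-Twist library lay below every HMLE-pBp library, and in HMLE-pBp every salinomycin library lay below every mock library. Replicate 1 was the lowest of the 3 in each of the 4 groups. Between the lines the log2 fold change was -1.95 ± 0.23 under salinomycin (adjusted p = 1.27e-05) and -2.80 ± 0.23 under mock (adjusted p = 3.54e-07); the mock mean in HMLE-Twist was 0.127 times that in HMLE-pBp.

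With salinomycin LRP5 fell in HMLE-pBp by 0.74 ± 0.23 on the log2 scale (limma, adjusted p = 0.0476), its mean reaching 0.616 times the mock mean. In HMLE-Twist its log2 fold change was 0.11 ± 0.23 (95% interval -0.40 to 0.62, adjusted p = 0.783). The difference of the responses, HMLE-Twist minus HMLE-pBp, was 0.85 ± 0.33 and did not pass (adjusted p = 0.107). With the replicate number as a block within each line it passed (adjusted p = 0.0127). The call of LRP5 in HMLE-pBp stood close to the threshold and was lost with a pseudocount of 0.1 (adjusted p = 0.0601), with TPM (adjusted p = 0.0515) and without salinomycin replicate 1 of HMLE-pBp, the lowest library, when the log2 fold change was -0.43 (adjusted p = 0.159). It was also lost with no filter (adjusted p = 0.0927), with the 6 HMLE-pBp libraries alone (adjusted p = 0.0964), and without mock replicate 1, 2 or 3 or salinomycin replicate 2 of HMLE-pBp (adjusted p = 0.0749, 0.0946, 0.161 and 0.0609). The same happened without mock replicate 2 or any 1 salinomycin library of HMLE-Twist, where the log2 fold change itself stayed at -0.74 (adjusted p = 0.0576 to 0.0644). The difference of LRP5 responses passed without salinomycin replicate 3 of HMLE-pBp (adjusted p = 0.0464).

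LRP6 varied little. It was at 7.80, 7.78 and 8.15 FPKM with salinomycin and 9.26, 7.35 and 7.14 FPKM with mock in HMLE-Twist, and at 13.6, 13.7 and 12.4 FPKM with salinomycin and 14.7, 14.7 and 14.3 FPKM with mock in HMLE-pBp. Groups of the 2 lines did not overlap, and HMLE-Twist was lower by a log2 fold change of -0.68 ± 0.09 under salinomycin (limma, adjusted p = 3.73e-05) and -0.81 ± 0.09 under mock (adjusted p = 5.60e-06). Salinomycin gave LRP6 a log2 fold change of 0.01 ± 0.09 in HMLE-Twist (95% interval -0.19 to 0.21) and -0.13 ± 0.09 in HMLE-pBp (95% interval -0.33 to 0.07), neither past the threshold (adjusted p = 0.975 and 0.341). The ratio of LRP5 to LRP6 FPKM was 0.685, 0.813 and 0.893 with salinomycin and 0.454, 0.894 and 0.946 with mock in HMLE-Twist. In HMLE-pBp the ratio was 1.29, 2.28 and 2.94 with salinomycin and 2.89, 2.95 and 3.68 with mock. LRP6 was thus the more abundant of the pair in every HMLE-Twist library and LRP5 in every HMLE-pBp library.

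FZD6, a Frizzled known for planar cell polarity in skin and hair, was the most abundant Frizzled in both lines. Its values were 32.2, 39.8 and 35.7 FPKM with salinomycin and 44.6, 50.4 and 43.0 FPKM with mock in HMLE-Twist. In HMLE-pBp they were 113, 133 and 119 FPKM with salinomycin and 117, 140 and 147 FPKM with mock. The salinomycin libraries lay below all mock libraries in HMLE-Twist, and the groups overlapped in HMLE-pBp. FZD6 fell with salinomycin in HMLE-Twist by 0.35 ± 0.11 on the log2 scale (limma, adjusted p = 0.0335), to 0.780 times the mock mean. In HMLE-pBp its log2 fold change was -0.15 ± 0.11 (adjusted p = 0.367), and the difference of responses was -0.20 ± 0.16 (adjusted p = 0.391). The call of FZD6 in HMLE-Twist was lost without mock replicate 2 (adjusted p = 0.124), salinomycin replicate 1 (adjusted p = 0.136) or salinomycin replicate 3 (adjusted p = 0.0878) of that line, with its 6 libraries alone (adjusted p = 0.0596) and with no filter (adjusted p = 0.0540). Between the lines FZD6 was lower in HMLE-Twist, at -1.73 ± 0.11 under salinomycin (adjusted p = 3.39e-08) and -1.53 ± 0.11 under mock (adjusted p = 8.90e-08).

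FZD2, a receptor used by WNT5A, was higher in HMLE-Twist than in HMLE-pBp under salinomycin. It measured 7.95, 7.32 and 9.75 FPKM with salinomycin and 7.48, 9.87 and 13.0 FPKM with mock in HMLE-Twist, and 3.40, 5.21 and 7.04 FPKM with salinomycin and 6.38, 6.90 and 9.02 FPKM with mock in HMLE-pBp. HMLE-Twist was above HMLE-pBp without overlap under salinomycin, at 0.62 ± 0.22 (limma, adjusted p = 0.0287), and the lines overlapped under mock, at 0.38 ± 0.22 (adjusted p = 0.141). The call under salinomycin was lost without salinomycin replicate 1 or 2 of HMLE-pBp (adjusted p = 0.124 and 0.0565) or salinomycin replicate 1 or 3 of HMLE-Twist (adjusted p = 0.0542 and 0.10), and with no filter (adjusted p = 0.0569); the mock difference passed without mock replicate 1 of HMLE-Twist (adjusted p = 0.0461). With salinomycin the FZD2 log2 fold change was -0.23 ± 0.22 in HMLE-Twist (adjusted p = 0.494) and -0.47 ± 0.22 in HMLE-pBp (adjusted p = 0.159). With the replicate number as a block the HMLE-pBp value passed (adjusted p = 0.0137), as it did without salinomycin replicate 3 of that line (adjusted p = 0.0495), and FZD2 was lower in 3 of 3 numbered pairs there.

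Summed over the Frizzled family, FPKM came to 58.5 ± 2.74 with salinomycin and 70.1 ± 3.21 with mock in HMLE-Twist, and to 144 ± 13.9 with salinomycin and 168 ± 21.2 with mock in HMLE-pBp (SD, n = 3 each). FZD6 made up 61.3% ± 5.01 with salinomycin and 65.6% ± 4.66 with mock of the sum in HMLE-Twist, and 84.1% ± 3.12 with salinomycin and 80.5% ± 1.14 with mock in HMLE-pBp. FZD2 was the next by mean in HMLE-Twist, with 14.3% ± 1.86 with salinomycin and 14.4% ± 3.60 with mock. FZD7 followed there with 11.5% ± 1.44 and 9.44% ± 1.77, and its share overlapped that of FZD2 with salinomycin. In HMLE-pBp FZD2 held 3.58% ± 1.12 with salinomycin and 4.42% ± 0.425 with mock, and FZD5 was the next after FZD6, with 4.17% ± 0.651 and 5.30% ± 0.289. The FZD2 shares may be understated, as its level may be.

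Among 21 listed receptors and co-receptors 16 were tested, with SMO among them, which is not itself a Wnt receptor. With salinomycin 1 rose and 2 fell in HMLE-Twist, against 12.8% and 13.6% of all tested genes, and 0 rose and 4 fell in HMLE-pBp, against 9.47% and 9.27%. LGR4, a receptor for R-spondins, fell in HMLE-Twist by 0.88 ± 0.11 on the log2 scale (limma, adjusted p = 0.000206), and its response was lower in HMLE-Twist than in HMLE-pBp (difference -0.58 ± 0.16, adjusted p = 0.0342). FZD8 rose in HMLE-Twist by 0.59 ± 0.16, at 0.749 ± 0.276 FPKM with salinomycin and 0.152 ± 0.106 FPKM with mock. In HMLE-pBp, LRP4 fell by 0.81 ± 0.13, FZD5 by 0.50 ± 0.15 and FZD3 by 0.47 ± 0.12 on the log2 scale. Under mock, 4 of the 16 were higher and 10 lower in HMLE-Twist, against 36.2% and 37.2% of all tested genes. A gene that passed the filter through 1 line alone had to differ. SMO was among the 4 higher genes and passed the filter through HMLE-Twist alone, at 2.08 ± 0.400 FPKM against 0.430 ± 0.151 FPKM in HMLE-pBp under mock. ROR1, a receptor tyrosine kinase that binds WNT5A, averaged 15.3 ± 4.10 FPKM in HMLE-Twist and 4.24 ± 0.534 FPKM in HMLE-pBp under mock, and with salinomycin its line difference was 2.24 ± 0.15 (adjusted p = 6.13e-08).

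WNT5A and WNT5B were the ligands of HMLE-Twist. WNT5A was at 42.1, 45.5 and 53.1 FPKM with salinomycin and 53.2, 44.3 and 47.2 FPKM with mock in HMLE-Twist. In HMLE-pBp it was represented by 3, 2 and 2 reads with salinomycin and 3, 3 and 8 reads with mock. Scaled for depth, the summed WNT5A reads were 2430 times higher in HMLE-Twist than in HMLE-pBp under salinomycin (95% exact counting interval 1180 to 6030) and 1250 times higher under mock (745 to 2290). These intervals cover counting error only. The kit keeps the strand, but whether reads were counted by strand is not given in the sources used here, so WNT5A and any antisense transcript cannot be told apart.

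WNT5B measured 32.0, 26.6 and 39.1 FPKM with salinomycin and 34.1, 29.1 and 49.2 FPKM with mock in HMLE-Twist, against 1.01, 1.59 and 1.20 FPKM with salinomycin and 1.48, 1.77 and 1.33 FPKM with mock in HMLE-pBp. Its means were 25.7 times higher in HMLE-Twist under salinomycin and 24.5 times higher under mock. The salinomycin and mock libraries of each line overlapped for WNT5B, and for WNT5A in HMLE-Twist. With salinomycin the log2 fold change was -0.04 ± 0.10 for WNT5A (95% interval -0.25 to 0.17) and -0.18 ± 0.18 for WNT5B (95% interval -0.58 to 0.22) in HMLE-Twist. WNT5B changed by -0.16 ± 0.18 in HMLE-pBp (95% interval -0.56 to 0.24). None of the 3 passed (limma, adjusted p = 0.798, 0.519 and 0.567).

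**Figure D2:**
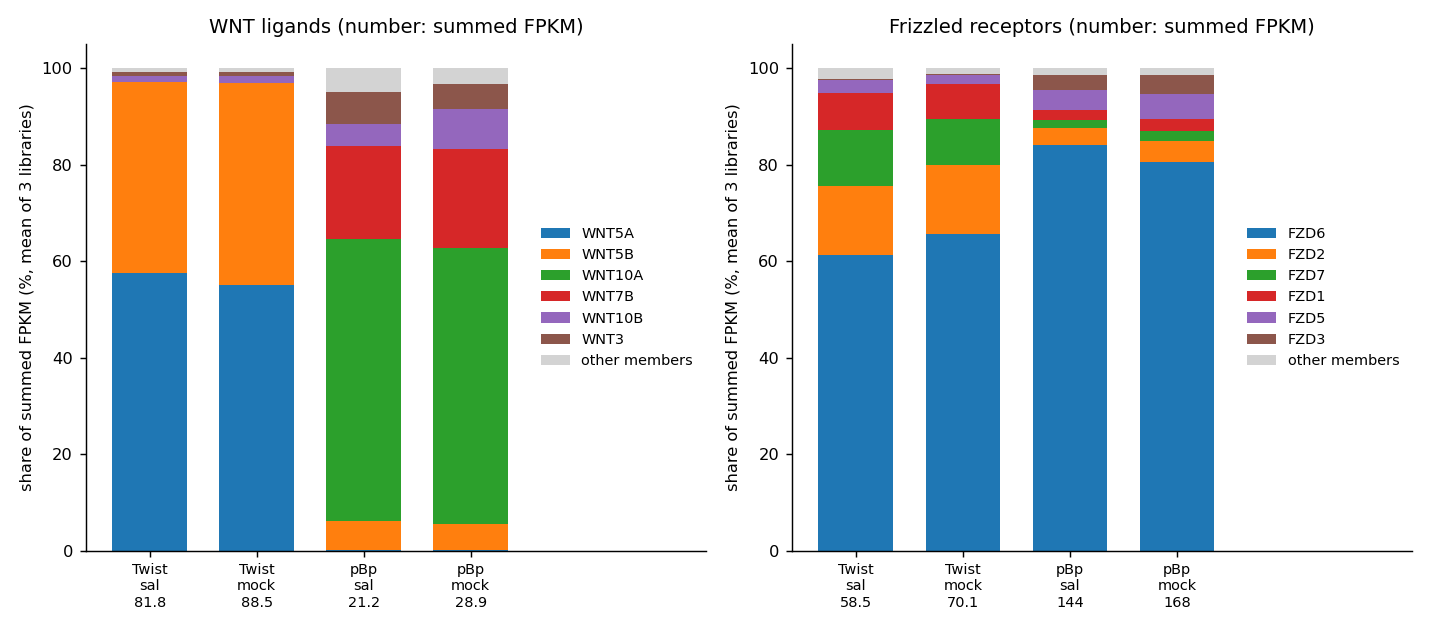
Share of each gene in the summed FPKM of the WNT ligands (left, without WNT7A and WNT9A) and of the Frizzled receptors (right), as means of 3 libraries per group. The number under each bar is the group's mean summed FPKM. WNT5A and WNT5B fill nearly the whole bar in HMLE-Twist, WNT10A and WNT7B most of it in HMLE-pBp, and FZD6 is the largest Frizzled share in all 4 groups.

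The WNT ligands with settled reads summed to 81.8 ± 11.4 FPKM with salinomycin and 88.5 ± 11.6 FPKM with mock in HMLE-Twist. In HMLE-pBp they summed to 21.2 ± 4.76 FPKM with salinomycin and 28.9 ± 3.73 FPKM with mock. WNT5A made up 57.5% ± 3.35 of this sum with salinomycin and 55.0% ± 6.49 with mock in HMLE-Twist, and WNT5B 39.6% ± 3.33 with salinomycin and 41.9% ± 6.61 with mock. In HMLE-pBp, WNT10A held 58.4% ± 1.85 with salinomycin and 57.3% ± 3.13 with mock, and WNT7B 19.3% ± 1.80 with salinomycin and 20.5% ± 2.26 with mock. WNT10A, a ligand known for beta-catenin signalling in epithelia, had 1 read in HMLE-Twist and 2336 reads in HMLE-pBp under mock. WNT7B, another such ligand, had 0 reads in HMLE-Twist and 1339 reads in HMLE-pBp under mock. Both passed the filter on low values through HMLE-pBp alone, so no test of this line difference is given. WNT7A and WNT9A were left out, because their reads could not be settled, so these sums and shares lack both.

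Of 25 ligands, secretion factors and R-spondins, 8 were tested. With salinomycin 1 rose and 0 fell in HMLE-Twist (12.8% and 13.6% of all tested genes), and 0 rose and 3 fell in HMLE-pBp (9.47% and 9.27% of all tested genes). WLS, the carrier that takes Wnt proteins to the cell surface, was at 35.7 ± 2.08 FPKM with salinomycin and 30.0 ± 2.01 FPKM with mock in HMLE-Twist, and at 49.5 ± 1.38 FPKM with salinomycin and 65.3 ± 3.77 FPKM with mock in HMLE-pBp. It rose by 0.24 ± 0.08 in HMLE-Twist (limma, adjusted p = 0.0354) and fell by 0.39 ± 0.08 in HMLE-pBp (adjusted p = 0.00511), and the responses differed by 0.63 ± 0.11 (adjusted p = 0.00409). WNT7B fell in HMLE-pBp by 0.46 ± 0.10 and WNT10B by 0.77 ± 0.19 on the log2 scale.

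DKK1 is the secreted antagonist that binds LRP5 and LRP6 and is itself a known beta-catenin target. It had the highest mean of the members under mock in both lines, overlapping with FZD6 in HMLE-pBp. DKK1 fell with salinomycin in both lines. It measured 90.0, 83.6 and 106 FPKM with salinomycin and 192, 100 and 182 FPKM with mock in HMLE-Twist. In HMLE-pBp it measured 82.6, 73.8 and 67.8 FPKM with salinomycin and 160, 133 and 162 FPKM with mock. All HMLE-pBp salinomycin libraries lay below all mock libraries, whereas in HMLE-Twist mock replicate 2 lay among the salinomycin libraries. DKK1 was lower with salinomycin in 3 of 3 numbered pairs in each line.

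The log2 fold change of DKK1 was -0.71 ± 0.20 in HMLE-Twist (limma, adjusted p = 0.0230) and -1.01 ± 0.20 in HMLE-pBp (adjusted p = 0.00586), with means at 0.590 and 0.492 times those of mock. The difference of responses was 0.31 ± 0.29 (95% interval -0.32 to 0.93, adjusted p = 0.489). In HMLE-pBp the adjusted p stayed between 0.000341 and 0.0273 over all alternatives run. In HMLE-Twist it was lost without mock replicate 1 (adjusted p = 0.0783), mock replicate 3 (adjusted p = 0.0692), salinomycin replicate 1 (adjusted p = 0.0701) or salinomycin replicate 2 (adjusted p = 0.0799) of that line, with its 6 libraries alone (adjusted p = 0.10) and with no filter (adjusted p = 0.0525). Between the lines DKK1 gave 0.31 ± 0.20 under salinomycin (adjusted p = 0.196) and 0.01 ± 0.20 under mock (adjusted p = 0.972); the salinomycin value passed with the 6 salinomycin libraries alone (adjusted p = 0.0370) and without mock replicate 2 of HMLE-Twist (adjusted p = 0.0311).

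DKK3, a relative of DKK1 that is not known to bind LRP5 or LRP6 as DKK1 does, stood at 80.4, 86.0 and 96.1 FPKM with salinomycin and 81.1, 87.9 and 91.2 FPKM with mock in HMLE-Twist. In HMLE-pBp it stood at 56.4, 64.2 and 58.3 FPKM with salinomycin and 71.9, 73.0 and 74.2 FPKM with mock. The groups overlapped in HMLE-Twist and did not in HMLE-pBp. DKK3 fell with salinomycin in HMLE-pBp by 0.29 ± 0.08 on the log2 scale (limma, adjusted p = 0.0306), against a log2 fold change of 0.01 ± 0.08 in HMLE-Twist (adjusted p = 0.947). The difference of responses was 0.30 ± 0.12 (adjusted p = 0.106), and it passed with the replicate number as a block (adjusted p = 0.0291). The DKK3 call in HMLE-pBp was lost without mock replicate 1, 2 or 3 (adjusted p = 0.0593, 0.0850 and 0.103) or salinomycin replicate 1 or 3 of the line (adjusted p = 0.106 and 0.0642). HMLE-Twist was above HMLE-pBp by 0.54 ± 0.08 under salinomycin (adjusted p = 9.97e-05) and by 0.24 ± 0.08 under mock (adjusted p = 0.0191); the mock call was lost without mock replicate 2 or 3 of HMLE-Twist (adjusted p = 0.0510 and 0.0632) or mock replicate 1 of HMLE-pBp (adjusted p = 0.0507).

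Of 23 secreted and membrane inhibitors 9 were tested, and with salinomycin 1 rose and 1 fell in HMLE-Twist, against 12.8% and 13.6% of all tested genes, while 1 rose and 3 fell in HMLE-pBp, against 9.47% and 9.27%. TPBG, a membrane protein known to turn LRP6 away from signalling, was at 50.6 ± 10.5 FPKM with salinomycin and 21.7 ± 3.13 FPKM with mock in HMLE-Twist, and at 88.0 ± 7.58 FPKM with salinomycin and 62.4 ± 7.39 FPKM with mock in HMLE-pBp. It rose by 1.17 ± 0.15 in HMLE-Twist (limma, adjusted p = 0.000257) and by 0.49 ± 0.15 in HMLE-pBp (adjusted p = 0.0454). SFRP1, a secreted protein that binds Wnt ligands, averaged 79.8 ± 19.0 FPKM with salinomycin and 167 ± 4.68 FPKM with mock in HMLE-pBp, where it fell by 1.08 ± 0.14 on the log2 scale (adjusted p = 0.000428). SFRP1 was near 0 in HMLE-Twist, at 0.106 ± 0.0343 FPKM with salinomycin and 0.0739 ± 0.0429 FPKM with mock, too low to show a fall.

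**Figure D3:**
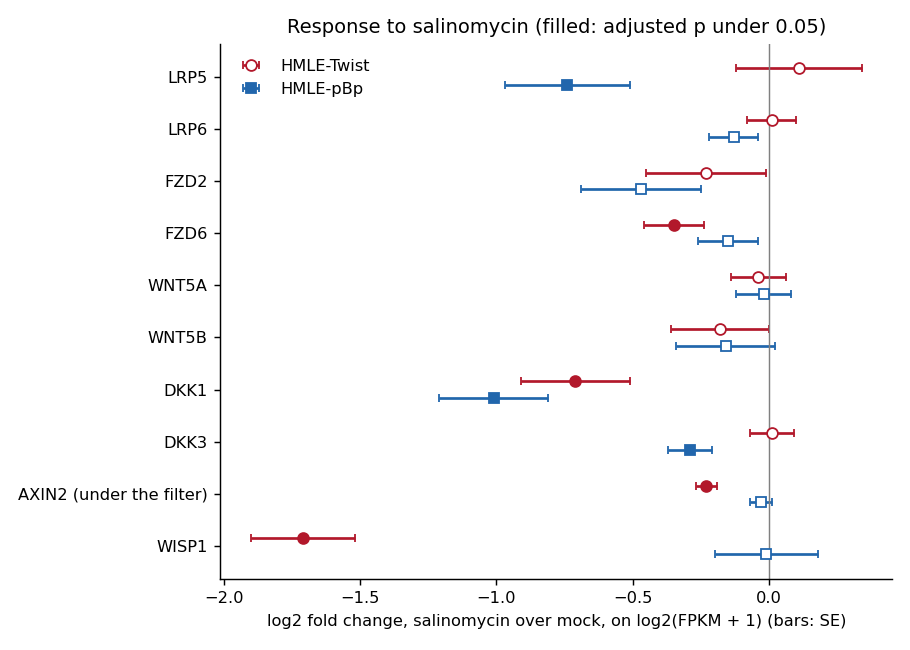
Log2 fold change on log2(FPKM + 1), salinomycin over mock, for the 10 genes in HMLE-Twist (red circles) and HMLE-pBp (blue squares), with SE bars; filled symbols have an adjusted p under 0.05. WISP1 is lowest in HMLE-Twist at -1.71 and DKK1 lowest in HMLE-pBp at -1.01; AXIN2 comes from a fit without the filter on low values and was not called with limma voom.

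AXIN2 and WISP1 are commonly read as targets of beta-catenin. AXIN2 was low throughout, at 0.425, 0.361 and 0.518 FPKM with salinomycin and 0.674, 0.642 and 0.734 FPKM with mock in HMLE-Twist, from 40, 32 and 55 reads with salinomycin and 60, 54 and 85 reads with mock. In HMLE-pBp 1, 2 and 0 reads were found with salinomycin and 4, 4 and 0 reads with mock. In HMLE-Twist all salinomycin libraries lay below all mock libraries, with means in a ratio of 0.636. In a fit with no filter AXIN2 had a log2 fold change of -0.23 ± 0.04 there (limma, adjusted p = 0.00358), where 8.75% of 18643 genes were called lower. With TPM it was -0.38 (limma, adjusted p = 0.0434). With limma voom on the recovered reads it was -0.66 and did not pass (adjusted p = 0.194). That voom fit used no filter beyond 10 reads and was chosen after seeing the data. The calls differ, so no fall is claimed for AXIN2. Summed AXIN2 reads, scaled for depth, were 35.7 times higher in HMLE-Twist than in HMLE-pBp under salinomycin (95% exact counting interval 12.0 to 176) and 21.2 times higher under mock (10.5 to 49.7).

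WISP1, a member of the CCN family of matricellular proteins, showed the largest salinomycin response of the 10 genes. HMLE-Twist libraries held 1.91, 4.06 and 3.97 FPKM with salinomycin and 10.9, 16.1 and 11.5 FPKM with mock, from 221, 441 and 516 reads with salinomycin and 1191, 1659 and 1633 reads with mock. HMLE-pBp libraries held 1, 0 and 0 reads with salinomycin and 3, 0 and 1 reads with mock. The HMLE-Twist salinomycin libraries lay far below the mock libraries, at a ratio of means of 0.258. Its log2 fold change there was -1.71 ± 0.19 (95% interval -2.12 to -1.29; limma, adjusted p = 8.51e-05), and its adjusted p did not exceed 0.00802 in any alternative run.

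In HMLE-pBp WISP1 was too low to show a response, with a log2 fold change of -0.01 ± 0.19 (adjusted p = 0.972). The difference of responses on log2(FPKM + 1) was -1.69 ± 0.27 (adjusted p = 0.00279), the only one of 9 tested members past the threshold, where 13.6% of all genes passed (6.97% higher and 6.60% lower). That value rests on the fall in HMLE-Twist: with limma voom on the reads it was -1.04 with an adjusted p of 0.720, since HMLE-pBp held 1 read with salinomycin and 4 with mock in all. Scaled for depth, WISP1 reads were 995 times higher in HMLE-Twist than in HMLE-pBp under salinomycin (95% exact counting interval 178 to 39300) and 954 times higher under mock (372 to 3500).

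Counted together, 3 of 9 tested members fell and 0 rose with salinomycin in HMLE-Twist (FZD6, DKK1 and WISP1), where 26.5% of all tested genes passed in either direction and 13.6% fell. In HMLE-pBp 3 fell and 0 rose (LRP5, DKK1 and DKK3), where 18.7% passed and 9.27% fell. These counts over 9 members were not tested against the background. The members' median log2 fold change stood at -0.18 for HMLE-Twist and -0.16 for HMLE-pBp, against -0.01 over all genes in both. Of the 10 genes, FZD6, AXIN2 and WISP1 had salinomycin libraries all below the mock libraries in HMLE-Twist and 0 had them all above, against 21.1% and 19.0% of tested genes. In HMLE-pBp the same held for LRP5, LRP6, WNT5A, DKK1 and DKK3, with 0 above, against 21.1% and 20.2% of tested genes, but WNT5A rests there on 7 reads with salinomycin and 14 with mock. In HMLE-pBp 3 of 10 epithelial markers fell and 1 rose with salinomycin, against 9.27% and 9.47% of all tested genes. The summed FPKM of the 10 was 2190 to 2390 with salinomycin and 2600 to 2980 with mock. In HMLE-Twist 2 of 10 mesenchymal markers rose with salinomycin, FN1 and SPARC, and 1 fell, against 12.8% and 13.6% of all tested genes. The one that fell, COL3A1, was at 165 ± 69.8 FPKM with salinomycin and 488 ± 149 FPKM with mock. The summed FPKM of mesenchymal markers there was 4940 to 5720 with salinomycin and 4020 to 4920 with mock. Both sums also hold markers that did not pass, such as KRT14 in HMLE-pBp and VIM and TWIST1 in HMLE-Twist. The part of either marker set in the changes of the Wnt genes was not tested. The salinomycin comparisons of the 2 lines share no library, and the difference of responses uses the libraries of both.

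WISP1 and DKK1 fell in HMLE-Twist while other commonly listed Wnt targets, such as MYC and FOSL1, rose. Of 22 target genes 12 were tested. With salinomycin 6 rose and 2 fell in HMLE-Twist, with a median log2 fold change of 0.28, where 12.8% of all tested genes rose and 13.6% fell. In HMLE-pBp 0 rose and 2 fell, with a median of -0.20, where 9.47% of all tested genes rose and 9.27% fell. The 2 that fell in HMLE-Twist were WISP1 and DKK1. MYC, a growth regulator, averaged 64.4 ± 8.76 FPKM with salinomycin and 20.8 ± 2.64 FPKM with mock in HMLE-Twist, and 98.8 ± 11.1 FPKM with salinomycin and 144 ± 22.2 FPKM with mock in HMLE-pBp. It rose by 1.58 ± 0.14 in HMLE-Twist (limma, adjusted p = 2.30e-05) and fell by 0.53 ± 0.14 in HMLE-pBp (adjusted p = 0.0224), and the responses differed by 2.11 ± 0.20 (adjusted p = 0.000131).

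FOSL1, a subunit of the AP-1 transcription factor, rose in HMLE-Twist by 2.04 ± 0.19 (limma, adjusted p = 2.91e-05), at 108 ± 22.9 FPKM with salinomycin and 25.6 ± 5.81 FPKM with mock, and the responses differed by 1.81 ± 0.27 (adjusted p = 0.00180). JUN, another AP-1 subunit, rose there by 0.94 ± 0.29 (adjusted p = 0.0321). The cyclin CCND1 had a difference of responses of 1.22 ± 0.33 (adjusted p = 0.0297). These genes answer to other pathways as well as to beta-catenin. CCND1, CD44 and EPHB2 also rose in HMLE-Twist. CCND1 was at 22.1 ± 5.10 FPKM with salinomycin and 13.1 ± 4.56 FPKM with mock. For CCND1 and for JUN the salinomycin and mock libraries overlapped in HMLE-Twist. CD44 was at 113 ± 14.4 FPKM with salinomycin and 66.7 ± 12.0 FPKM with mock there. EPHB2 was at 1.52 ± 0.124 FPKM with salinomycin and 0.924 ± 0.0874 FPKM with mock. For CD44 and EPHB2 the difference of responses passed as well. ZNRF3, a membrane ligase that removes Frizzled receptors, was among the listed targets that passed in neither line. Its log2 fold change with salinomycin was 0.18 ± 0.13 in HMLE-Twist (adjusted p = 0.353) and -0.39 ± 0.13 in HMLE-pBp (adjusted p = 0.0577). The transcription factor TCF7 had -0.01 ± 0.10 in HMLE-Twist (adjusted p = 0.977) and -0.17 ± 0.10 in HMLE-pBp (adjusted p = 0.253). RNF43, a relative of ZNRF3, had -0.23 ± 0.09 in HMLE-pBp (adjusted p = 0.101) and held 0 reads with salinomycin and 1 with mock in HMLE-Twist. Others were too low to test: LEF1 averaged 0.144 ± 0.0602 FPKM with salinomycin and 0.170 ± 0.0963 FPKM with mock in HMLE-Twist, and SP5, NOTUM and LGR5 lay under 0.1 FPKM in every group.

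**Figure D4:**
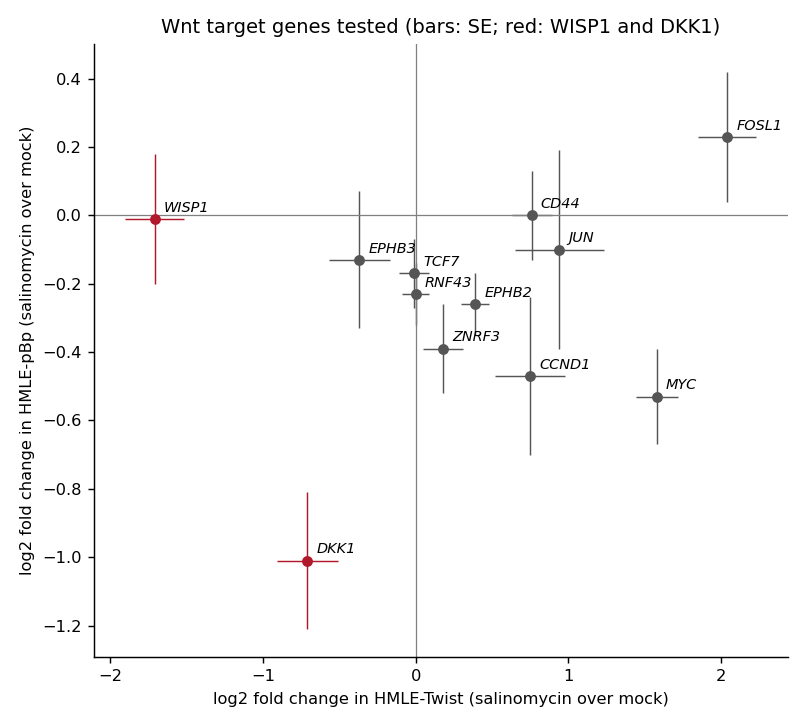
Log2 fold change on log2(FPKM + 1), salinomycin over mock, in HMLE-Twist (horizontal axis) and HMLE-pBp (vertical axis) for the 12 Wnt target genes tested, with SE bars. WISP1 and DKK1, in red, are the 2 that fell in HMLE-Twist, while MYC and FOSL1 lie to the right, with log2 fold changes of 1.58 and 2.04 in HMLE-Twist.

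Within the CCN family 5 of 6 genes were tested. NOV, a relative of WISP1, rose in HMLE-Twist by 1.48 ± 0.12 (limma, adjusted p = 1.90e-05), at 6.12 ± 1.03 FPKM with salinomycin and 1.56 ± 0.386 FPKM with mock, while WISP1 fell in the same libraries. CTGF fell in HMLE-pBp by 1.11 ± 0.28 on the log2 scale (adjusted p = 0.0190) and CYR61 by 0.61 ± 0.19 (adjusted p = 0.0403).

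Inside the cell, 19 of 28 cytoplasmic transducers and 11 of 13 nuclear effectors were tested. In HMLE-Twist 2 transducers rose and 1 fell with salinomycin, where 12.8% and 13.6% of all tested genes did. In HMLE-pBp 4 rose and 2 fell, where 9.47% and 9.27% of all tested genes did. The largest of these changes were a rise of FRAT2 by 0.58 ± 0.11 in HMLE-Twist (limma, adjusted p = 0.00240) and a fall of AMER1 by 0.73 ± 0.11 in HMLE-pBp (adjusted p = 0.00109). FRAT2 fell in HMLE-pBp. CTNNB1, which encodes beta-catenin, was at 123 ± 3.08 FPKM with salinomycin and 161 ± 5.04 FPKM with mock in HMLE-Twist and fell by 0.38 ± 0.07 on the log2 scale (limma, adjusted p = 0.00166). In HMLE-pBp CTNNB1 was at 124 ± 5.79 FPKM with salinomycin and 130 ± 7.91 FPKM with mock and did not pass. Its difference of responses passed. TNKS, a tankyrase that marks AXIN proteins for destruction, rose by 0.37 ± 0.11 in HMLE-Twist (adjusted p = 0.0332) and by 0.47 ± 0.11 in HMLE-pBp (adjusted p = 0.0156). The co-repressor TLE4 fell by 0.50 ± 0.09 in HMLE-Twist (adjusted p = 0.00197) and by 0.32 ± 0.09 in HMLE-pBp (adjusted p = 0.0336), and no other nuclear effector passed in either line. Of 14 tested genes of planar cell polarity 0 passed in HMLE-Twist and VANGL1 alone fell in HMLE-pBp, by 0.43 ± 0.12 (adjusted p = 0.0246).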

How the data were processed

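The authors deposited 4 tables, 1 per group, of 26364 rows each, made with DESeq2 (version string 1.1.0) on genome build hg19, per the submitters' processing notes; no source used here names the aligner, the counter or the annotation. The deposited mock tables hold FPKM. The deposited salinomycin tables, though named FPKM, hold log2 values with the spread between libraries shrunk. Whole reads were recovered from the steps of the mock values and by inverting the shrinkage with a penalised negative binomial model; 99.3% (HMLE-Twist) and 96.7% (HMLE-pBp) of salinomycin values of genes of up to 1000 reads came within 0.1 of a whole read. 928 genes with unsettled reads were left out, none of them a member. Libraries held 17.91 to 26.73 megareads.

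FPKM was rebuilt with median-of-ratios size factors over 12 libraries. Genes with at least 1 FPKM in at least 3 libraries entered 1 limma fit (version 3.58.1, R 4.3.3) of 4 groups on log2(FPKM + 1). The same fit was run on simulated data with independent libraries and 1 setting of the spread for all genes. That run held no pairing of libraries, so it cannot show how the fit does with paired libraries. Same-numbered salinomycin and mock libraries deviated together, with a correlation of 0.45, 0.43 and 0.72 in HMLE-Twist and 0.53, 0.22 and 0.59 in HMLE-pBp. The replicate number thus pairs them. The main fit left this pairing out, and SEs, intervals and adjusted p come from it unless another fit is named. Blocked fits appear only where a call changed. Replicates of a group differed by more than sampling noise. All members are named. Up to 3 genes past the threshold with the largest change per salinomycin contrast were eligible from each list. For each line contrast up to 2 were. TWIST1 and identity markers were eligible too. LEF1, SP5, NOTUM, LGR5, ZNRF3, RNF43, TCF7, CD44, EPHB2 and the mock level of ROR1 were added after their values were seen. The members and lists were chosen with earlier results of these data known. Alternatives covered the block, pseudocount, filters, TPM and upper-quartile scaling, limma voom, gene lengths, unsettled genes, the libraries in the fit and each library left out. Calls of single genes were followed through the alternatives for the members only, so calls of other named genes were not checked in this way.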

Additional observations from a re-analysis of the deposited data

Results flagged for a closer look

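WISP1 was the member whose difference of salinomycin responses, HMLE-Twist minus HMLE-pBp, passed the test of the difference itself, at -1.69 on log2(FPKM + 1) (limma, adjusted p = 0.00279). With limma voom on the recovered reads it was -1.04 and did not pass (adjusted p = 0.720). HMLE-Twist held 1178 WISP1 reads with salinomycin and 4483 with mock, and HMLE-pBp held 1 read with salinomycin and 4 with mock, and WISP1 passed the filter on low values through HMLE-Twist alone. The response in HMLE-pBp could not be measured, so no difference of responses is claimed.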

How the results depend on the processing

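Over 1031 recomputed values for 50 results, 40 lost a call and 8 gained one. The sign changed in 29 values of 9 results, 0 of them called in either fit. Calls that were lost in some alternatives had far lower values in others. In HMLE-pBp the limma adjusted p ran from 0.00425 to 0.161 for LRP5 and from 0.00716 to 0.106 for DKK3 (salinomycin against mock). In HMLE-Twist it ran from 0.00461 to 0.136 for FZD6 and from 0.000493 to 0.10 for DKK1. The falls of WISP1 in HMLE-Twist and of DKK1 in HMLE-pBp, and the line differences of LRP5, LRP6, FZD6, WNT5A, WNT5B and WISP1, passed under every alternative run that tested them, though for WNT5A and WISP1 the filter had built in the line difference. With only the 6 libraries of the contrast, 1 member was called in HMLE-Twist in place of 3. With the replicate number as a block, the genes called were 4718 in HMLE-Twist against 3085, 4234 in HMLE-pBp against 2185, and 3763 for the difference of responses against 1583, and the difference then called 3 members in place of 1; beyond LRP5, DKK3 and FZD2, named above, the block changed no member's call, taken as a random term for the comparisons of lines; AXIN2 was not in that fit. For the difference of responses, 0 members were called with limma voom, with limma voom and no filter beyond 10 reads (chosen after seeing the data), and with a mean of at least 5 FPKM, where WISP1 was not tested.

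Leaving out 1 library at a time gave 1 to 3 members in HMLE-Twist, 1 to 3 in HMLE-pBp, and 1 to 2 for the difference. The single member in HMLE-Twist came without its salinomycin replicate 1, and the single member in HMLE-pBp without any 1 of its mock libraries or its salinomycin replicate 1. All genes called in HMLE-pBp ran from 1105 to 3058, falling to 1303 without mock replicate 2, 1105 without mock replicate 3 and 1180 without salinomycin replicate 1. For the difference the range was 747 to 2349, with 871 without mock replicate 2, 799 without salinomycin replicate 1 and 788 without salinomycin replicate 3 of HMLE-Twist, and 850 without mock replicate 2, 747 without mock replicate 3 and 1045 without salinomycin replicate 2 of HMLE-pBp. The causes were not tested. Other scalings moved the median of all genes by at most 0.044 on the log2 scale. Depth limits AXIN2 in both lines and WNT5A and WISP1 in HMLE-pBp.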

Other observations

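With the mean of each line taken off, the genes whose log2(FPKM + 1) followed a member most closely over the 12 libraries were named by Pearson r; these libraries share treatment and replicate number, and the values are descriptions. WISP1 was followed most closely by ANGPT1 (r = 0.995), ABCA8 (r = 0.993) and ZNF433 (r = 0.990). All of these genes lay near 0 in HMLE-pBp, so these values of r rest on the HMLE-Twist libraries and their treatment groups. ANGPT1, which encodes a ligand of the TIE2 receptor, averaged 10.7 FPKM with salinomycin and 23.1 FPKM with mock in HMLE-Twist and, like WISP1, lay near 0 in HMLE-pBp. DKK1 was followed by MRPL32 (r = 0.976), THBS1 (r = 0.968) and NDUFAF5 (r = 0.963). THBS1, the matricellular protein thrombospondin-1, averaged 120 FPKM with salinomycin and 205 FPKM with mock in HMLE-Twist, and 181 FPKM with salinomycin and 413 FPKM with mock in HMLE-pBp. LRP5 was followed by AGPAT3 (r = 0.989), VWA1 (r = 0.986) and ST6GALNAC4 (r = 0.981), FZD6 by BACE1 (r = 0.941), SLC35A1 (r = 0.938) and ZBED5 (r = 0.938), and DKK3 by DHRS13 (r = 0.960), VARS2 (r = 0.944) and POMZP3 (r = 0.927).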
